A study of Mus musculus with 35 samples.

Results

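The comparison described here concerns the HttQ111 allele at the shorter of the repeat lengths in the series. It uses the striatal RNA-seq libraries of the 19 mice whose ID begins with A or Z, out of 35 mice in all, and sets 10 HttQ111/+ mice against 9 Htt+/+ mice, with 1 library per mouse. The 10 HttQ111/+ mice (4 Hdac2 WT and 6 Hdac2 KO) had 110 to 118 CAG repeats, with a median of 111.5, and the 9 Htt+/+ mice (3 Hdac2 WT and 6 Hdac2 KO) had 7. Mice were 21.71 to 23 weeks old, and the groups held 5 females and 5 males, and 5 females and 4 males. HttQ111 is a knock-in of an expanded repeat into the mouse huntingtin gene on a C57BL/6J background, carried in 1 copy. In Hdac2 KO mice both Hdac2 alleles are floxed, with loxP sites around part of the gene. The D9-Cre transgene, driven by Ppp1r1b regulatory sequence, deletes that part in the medium spiny neurons (MSNs) of the striatum. Hdac2 WT mice lack Cre, and 2 of the 3 Htt+/+ Hdac2 WT mice have 1 floxed allele where the other Hdac2 WT mice have both. The floxed line came from a mixed C57BL/6/129 background, and its backcross to C57BL/6J was not complete. The A mice were 5 HttQ111/+ and 3 Htt+/+, and the Z mice 5 HttQ111/+ and 6 Htt+/+. A further 8 HttQ111/+ mice (3 Hdac2 WT and 5 Hdac2 KO) with 131 to 144 repeats and 8 Htt+/+ mice (5 Hdac2 WT and 3 Hdac2 KO) served as a reference. All had an ID beginning with V, were 22.29 to 22.57 weeks old and were mostly male. Repeat length and ID series therefore cannot be told apart in that comparison, and the sex make-up and Hdac2 balance differed as well.

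MSNs are the principal neurons of the striatum and the cells most affected in Huntington disease. They form a direct pathway, marked by the D1 dopamine receptor and the substance P precursor Tac1, and an indirect pathway, marked by the D2 receptor, the adenosine receptor Adora2a and the enkephalin precursor Penk. Both types carry dopamine signals through cyclic AMP, using adenylyl cyclase 5, striatal phosphodiesterases and DARPP-32, the product of Ppp1r1b. Lower levels of these MSN transcripts are a known feature of mice with long Htt repeats. In whole tissue, fewer cells of a type and less RNA per cell cannot be told apart.

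Libraries held 50970700 to 77867300 counts on genes. Hdac2 was measured at 95.5 to 111 CPM (counts scaled to library size) in HttQ111/+ Hdac2 WT, 101 to 105 in Htt+/+ Hdac2 WT, 89.8 to 98.9 in HttQ111/+ Hdac2 KO and 89.4 to 99.2 in Htt+/+ Hdac2 KO mice. Levels in Hdac2 WT and Hdac2 KO mice overlapped among HttQ111/+ mice and did not overlap among Htt+/+ mice, and whole-gene counts of tissue in which MSNs alone lose part of the gene are a weak check of that label. The library of HttQ111/+ Hdac2 WT replicate 7 stood apart. Its level of Slc17a7, the vesicular glutamate transporter of cortical neurons, was 346 CPM against a median of 10.8 and a next highest value of 132. Its 11 cortical neuron markers summed to 1731 CPM (585 to 1267 in the other 18 libraries) and its 10 MSN markers to 6104 CPM (7404 to 9234). The A and Z estimates of MSN genes and lists are therefore given with and without it.

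No gene passed the adjusted threshold for the HttQ111 allele in A and Z mice. Of 17735 genes tested, 0 (0%) had an adjusted p under 0.05 in the quasi-likelihood test of edgeR (Benjamini-Hochberg adjusted), and the smallest adjusted p was 0.385. At an unadjusted p under 0.05 there were 680 genes (3.83%), of which 333 had a higher and 347 a lower estimate in HttQ111/+ mice. DESeq2 called 3 genes, Ckb, Gpd1 and Penk, all lower. The median absolute log2 fold change was 0.04 with a median standard error (SE) of 0.06. Values below are log2 fold changes of HttQ111/+ over Htt+/+ mice with Hdac2 genotype and ID letter in the model, unless a level in CPM is named. None of the genes named for this comparison passed the adjusted threshold unless DESeq2 or sex as a covariate is cited.

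Penk, the enkephalin precursor of indirect pathway MSNs (GRCm38 chromosome 4, 4133531 to 4138819), had 1166, 1575 and 1729 CPM as lowest, median and highest level in the 10 HttQ111/+ libraries and 1660, 1862 and 2039 CPM in the 9 Htt+/+ libraries. The groups overlapped between 1660 and 1729 CPM. Its estimate was -0.27 (SE 0.06, adjusted p = 0.469 by edgeR; adjusted p = 0.0156 by DESeq2). The lowest HttQ111/+ value was that of the library that stood apart, and without it the estimate was -0.22 (SE 0.04, adjusted p = 0.154 by edgeR). The estimate was -0.24 (SE 0.09) in A and -0.29 (SE 0.08) in Z mice. Mean Penk levels were lower in HttQ111/+ mice on each of the 4 extraction dates that held both genotypes. Of these dates, 25 May and 3 June held 1 Htt+/+ library each, and the HttQ111/+ libraries of 25 May include the library that stood apart.

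**Figure D1:**
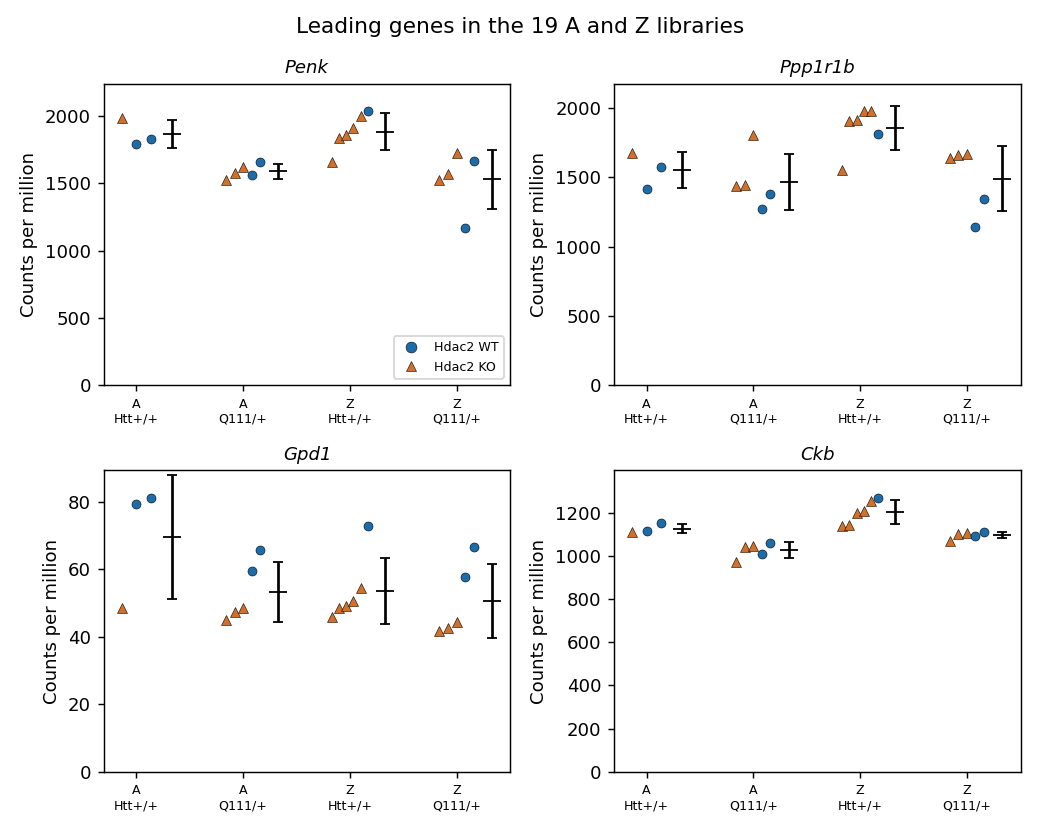
Levels of Penk, Ppp1r1b, Gpd1 and Ckb (CPM, axes from 0) in each A and Z library, by ID letter and Htt genotype, with circles for Hdac2 WT, triangles for Hdac2 KO, and bars for the mean and SD of each column. Ckb levels of HttQ111/+ mice end at 1110 and those of Htt+/+ mice begin at 1113, whereas Penk levels overlap and Gpd1 levels separate by Hdac2 genotype.

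The other indirect pathway genes had smaller estimates. Drd2, the D2 receptor, was at 177 to 212 CPM in HttQ111/+ and 181 to 273 CPM in Htt+/+ libraries, with an estimate of -0.15 (SE 0.05). Gpr6, a receptor of indirect pathway MSNs, had -0.16 (SE 0.06), and -0.12 (SE 0.05) without the library that stood apart. Adora2a, an adenosine receptor, had 292 to 436 against 378 to 495 CPM and an estimate of -0.11 (SE 0.06), which was -0.06 (SE 0.04) without that library. Over the list of 9 tested indirect pathway genes, 7 estimates lay below 0 and 3 had an unadjusted p under 0.05, with a median of -0.11. Over all genes tested the median was 0.0025, 8561 (48.3%) lay below 0 and 3.83% had an unadjusted p under 0.05. Without that library 8 of the 9 lay below 0 and the median was -0.06.

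Direct pathway genes had estimates on both sides of 0. Drd1a, the D1 receptor, had 307 to 444 CPM in HttQ111/+ and 357 to 467 CPM in Htt+/+ libraries and an estimate of -0.10 (SE 0.05). Tac1 had 232 to 360 against 277 to 343 CPM, and its estimate of 0.04 (SE 0.05) was above 0. Without the library that stood apart these were -0.07 (SE 0.04) for Drd1a and 0.09 (SE 0.04) for Tac1, and -0.11 (SE 0.05) for Drd2. Of the 11 entries tested in the direct pathway list, which counts both entries of Ebf1, 5 lay below 0, with a median of 0.04. Chrm4, a muscarinic receptor, had the 1 unadjusted p under 0.05 (-0.14, and -0.12 without that library), which 3.83% of all genes tested had. The side of 0 on which this list lay turned with the model, as its median was 0.08 without that library, -0.04 with extraction date (8 of 11 below 0) and -0.06 with surrogate variables (6 of 11).

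Genes of MSN signalling had small estimates on the same side. Of 30 genes, 28 lay below 0, against 48.3% of all genes tested. An unadjusted p under 0.05 was held by 9 of the 30, all lower, against 3.83% of all genes, and the median was -0.09. Ppp1r1b, which encodes DARPP-32, had 1285 ± 105 CPM (SD, n = 4) in HttQ111/+ and 1602.5 ± 201 CPM (SD, n = 3) in Htt+/+ mice on the Hdac2 WT background. The ranges did not overlap there, but the share of all genes with such a gap in so few libraries was not computed. On the Hdac2 KO background Ppp1r1b had 1610 ± 142 CPM (SD, n = 6) and 1834 ± 178 CPM (SD, n = 6), and the ranges overlapped. Its estimate was -0.22 (SE 0.06, adjusted p = 0.875 by edgeR), and since D9-Cre carries part of this gene, counts in Hdac2 KO mice may include reads of the transgene. In Hdac2 WT mice, which lack it, the estimate was -0.33 (SE 0.10). The HttQ111/+ libraries of this estimate include the library that stood apart, which had the lowest level (1143 CPM). No Hdac2 WT estimate without that library is given. The sodium channel subunit Scn4b had -0.19, the regulators of G protein signalling Rgs4 and Rgs9 -0.17 and -0.14, adenylyl cyclase 5 (Adcy5) -0.15, and the phosphodiesterases Pde10a and Pde1b -0.16 and -0.13. Without the library that stood apart the Ppp1r1b estimate was -0.18 (SE 0.05), and those of Scn4b, Rgs4 and Adcy5 were -0.15, -0.14 and -0.11. Rgs9, Pde10a and Pde1b moved further, to -0.09 (SE 0.04), -0.10 (SE 0.06) and -0.08 (SE 0.04), and the unadjusted p was then 0.0588 for Rgs9 and 0.114 for Pde10a. The list's median was then -0.05, with 24 of 30 genes below 0 and 6 with an unadjusted p under 0.05. With surrogate variables in the model the median was -0.04 and 22 genes lay below 0, and with extraction date it was -0.11 and all 30 lay below 0. Without the 2 mice with 1 floxed allele the median was -0.07 and 28 genes lay below 0, but only 4 had an unadjusted p under 0.05. Scn4b, Rgs4, Rgs9, Pde10a and Pde1b were not among these 4.

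**Figure D2:**
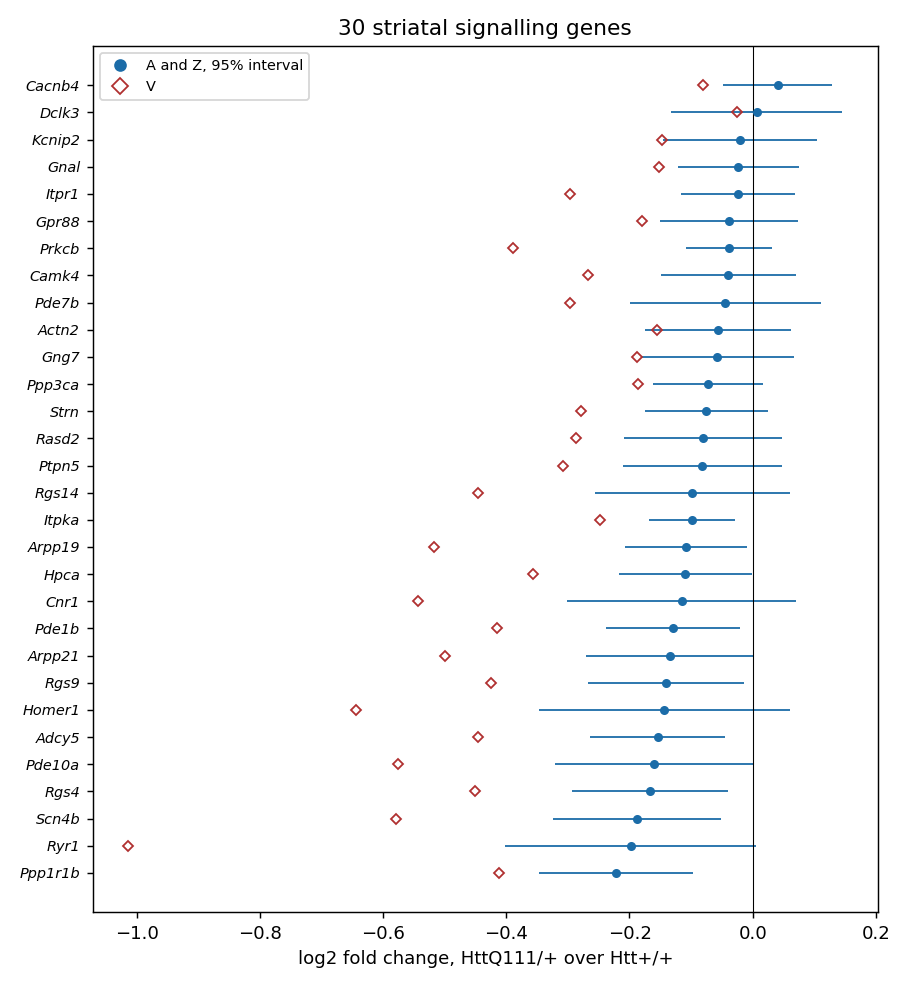
Log2 fold change of HttQ111/+ over Htt+/+ mice for the 30 MSN signalling genes, with filled circles and 95% intervals for A and Z mice and open diamonds for V mice. The A and Z estimates lie below 0 for 28 genes, and each V estimate lies below the A and Z estimate of its gene.

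Marker lists of cell types were measured beside these genes. The MSN list shares members with the lists above, Penk and Tac1 among them, so its values are not separate evidence. Of the 10 MSN markers 9 had an estimate below 0 (median -0.12, and -0.08 without the library that stood apart), and their summed level was 6104 to 8591 CPM in HttQ111/+ and 7844 to 9234 CPM in Htt+/+ libraries. Of the 11 cortical neuron markers 1 lay below 0 (median 0.13), with sums of 700 to 1731 and 585 to 1267 CPM. Without the library that stood apart 8 of the 11 lay below 0 and the median was -0.27, and with surrogate variables these were 8 and -0.17. The 10 oligodendrocyte markers all lay below 0 (median -0.04), with sums of 6137 to 8661 and 7301 to 10514 CPM. Their median was -0.26 in A and 0.12 in Z mice, -0.09 without the library that stood apart and -0.12 with extraction date. The medians of the astrocyte (-0.02), oligodendrocyte precursor (-0.02), microglia (-0.03), endothelial and mural (-0.02) and interneuron (-0.03) markers were near 0, and that of the 7 tested choroid and ependymal markers was 0.32. This last value was -0.31 in A and 0.51 in Z mice, and -0.08 with extraction date and 0.01 with surrogate variables. The part of these cells in the results was not tested.

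The other gene lists held few members past an unadjusted p of 0.05, which 3.83% of all genes tested had. There were 2 of 20 striatal transcription factors (Foxp4 and Bcl11a, both higher), 1 of 20 immediate early genes (Jun, -0.22), 2 of 27 neurotransmitter receptors (Htr2c higher and Htr4 lower), 1 of 22 chaperones (Hspa2, 0.14) and 1 of 12 mismatch repair genes (Exo1, 0.54). Without the library that stood apart the mismatch repair genes had 0, and the median of the immediate early genes was -0.15 in place of 0.01. The 26 glutamate and GABA receptors, the 22 cholesterol genes and the 12 Hdac genes had 0. Without the library that stood apart, the glutamate and GABA receptors had 1 higher and 1 lower, and the neurotransmitter receptors had 1, higher. In the list of 17 MHC and complement genes tested, 3 had an unadjusted p under 0.05, all lower. They were the complement genes C2 (-0.47, SE 0.21) and C4a and C4b, which are described below with the ID letters. The study chose a list of 29 genes that passed its adjusted threshold in the same direction in its own and in other data. These were its HttQ111 comparison of Hdac2 WT mice and the data of Langfelder et al. Here the list had 12 lower and 8 higher at an unadjusted p under 0.05. The Hdac2 WT libraries used here took part in that choice, so this is not independent evidence of direction. Without the 2 mice with 1 floxed allele the list had 9 lower and 1 higher.

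The 10 genes with the smallest p-values included Penk and the following. Gpd1, the cytosolic glycerol-3-phosphate dehydrogenase (chromosome 15, 99717515 to 99723792), had levels that followed the Hdac2 genotype. In Hdac2 WT mice it was at 57.6 to 66.4 CPM with (n = 4) and 72.8 to 81.1 CPM without the HttQ111 allele (n = 3). These ranges did not overlap, but the share of all genes with such a gap in so few libraries was not computed. In Hdac2 KO mice Gpd1 was at 41.7 to 48.5 and 46.0 to 54.3 CPM, and the ranges overlapped. The estimate was -0.22 (SE 0.04, adjusted p = 0.385 by edgeR; adjusted p = 0.00285 by DESeq2), and with sex in the model -0.21 (adjusted p = 0.0422 by edgeR).

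Ckb, the brain creatine kinase (chromosome 12, 111669355 to 111672338), had 972, 1067 and 1110 CPM in HttQ111/+ and 1113, 1154 and 1270 CPM in Htt+/+ libraries. It was the gene, of 17735, whose ranges did not overlap with HttQ111/+ lower (0.00564%), and 0 genes (0%) had HttQ111/+ higher without overlap. Its estimate was -0.13 (SE 0.03, adjusted p = 0.469 by edgeR; adjusted p = 0.00167 by DESeq2). Rbp4, a retinol carrier, had -0.25 (SE 0.05) and Stk30 had -0.20 (SE 0.05). Gm9825 had -0.23 (SE 0.05), with -0.45 (SE 0.06) in A and -0.08 (SE 0.05) in Z mice (adjusted p of the difference 0.0952 by edgeR). Its levels were 29.3 to 32.6 CPM in the 3 Htt+/+ A mice, 22.1 to 24.8 CPM in the Htt+/+ Z mice and 20.2 to 23.9 CPM in the HttQ111/+ A and Z mice, and the Htt+/+ A mice stood above the other A and Z mice. Cdk14, a cyclin-dependent kinase, had 0.50 (SE 0.11), with 35.5 to 83.7 CPM in HttQ111/+ and 32.7 to 67.5 CPM in Htt+/+ libraries. The highest Cdk14 level was that of the library that stood apart, and without that library the Cdk14 estimate was 0.42. D930048G16Rik had 0.42 (SE 0.10). The other genes of this group, Rps2-ps13 and Gm10260, had effects that differed between ID letters past the adjusted threshold and are described below.

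Htt itself had 171, 181 and 188 CPM in HttQ111/+ and 173, 191 and 213 CPM in Htt+/+ libraries, and the groups overlapped. Its estimate was -0.09 (SE 0.03, adjusted p = 1.00 by edgeR), with a 95% interval of -0.15 to -0.03. Of the 125 tested genes within 5 Mb of Htt, 0 passed the adjusted threshold and 4 had an unadjusted p under 0.05, against 3.83% of all genes tested.

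No difference in the HttQ111 effect between Hdac2 WT and Hdac2 KO mice passed the adjusted threshold. There were 0 genes (0%) at an adjusted p under 0.05 and 991 (5.59%) at an unadjusted p under 0.05 by edgeR, and DESeq2 called 1, Ildr2. The smallest adjusted p was 0.795. The Penk estimate was -0.31 (SE 0.10) in Hdac2 WT and -0.25 (SE 0.08) in Hdac2 KO mice, that of Gpd1 -0.31 (SE 0.06) and -0.16 (SE 0.05), and that of Drd2 -0.30 (SE 0.08) and -0.05 (SE 0.06). The median over the 30 MSN signalling genes was -0.17 and -0.03. For all of these Hdac2 WT estimates, the 4 HttQ111/+ libraries include the library that stood apart. The median SE of the difference was 0.13, so that differences of the size of these estimates were not detectable for most genes.

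V mice were compared in the same way. In the model of all 35 libraries, 1111 of 17346 genes (6.4%) passed the adjusted threshold in V mice, 417 higher (2.4%) and 694 lower (4%), and A and Z mice shared no library with them. Of these 1111 genes, 944 had the same sign in A and Z mice, 135 of them with an unadjusted p under 0.05, and 3 had an unadjusted p under 0.05 with the other sign. Their median absolute log2 fold change was 0.24 in V and 0.05 in A and Z mice. The genes were chosen for their V values, so the V sizes are a description. The 135 genes were 12.2% of the 1111, whereas 3.83% of all genes tested in A and Z mice, with either sign, had an unadjusted p under 0.05. The share of all genes with the same sign in V as in A and Z mice was not computed. How far 944 of 1111 exceeds that share is therefore not known.

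**Figure D3:**
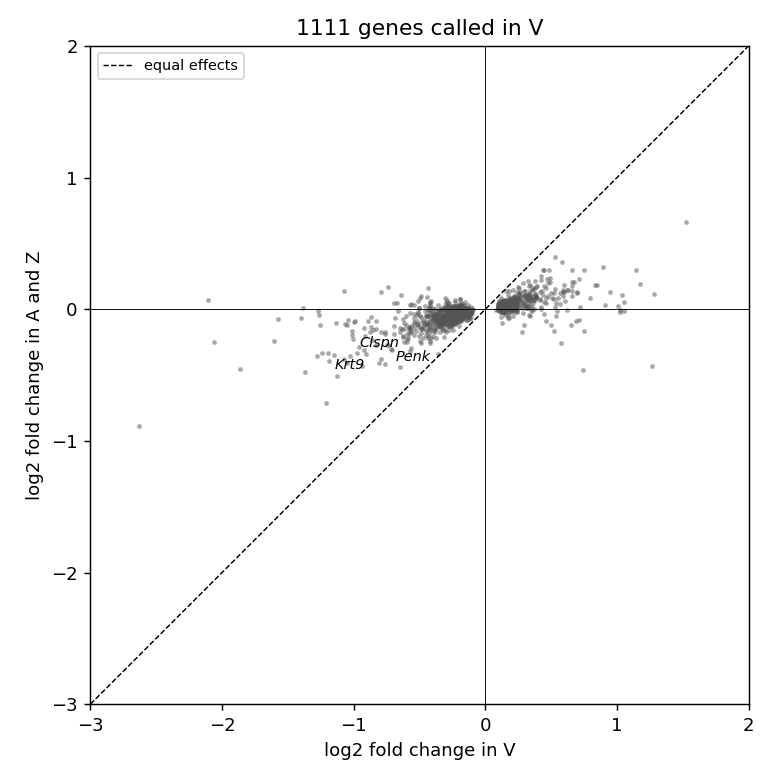
Log2 fold change of HttQ111/+ over Htt+/+ mice in A and Z (vertical) against V (horizontal) for the 1111 genes called in V, with a dashed line of equal effects. Each point lies nearer 0 in A and Z than in V, and 944 lie on the same side of 0.

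The difference between the effects passed the adjusted threshold for 24 genes (0.138%), with a positive difference, A and Z minus V, for 18 (0.104%) and a negative one for 6 (0.0346%), and 1556 genes (8.97%) had an unadjusted p under 0.05. All 24 were called in V, where 18 were lower and 6 higher, and all had the estimate of smaller size in A and Z mice. The sign was the same in A and Z mice as in V for 19 of the 24. These genes were chosen by a difference that includes the V effect, so the larger size in V is in part given by that choice. For Penk the estimate was -0.73 (SE 0.06) in V, and the difference was 0.46 (SE 0.08, adjusted p = 0.00774 by edgeR). Prkcb, a protein kinase C of striatal neurons, had -0.39 (SE 0.04) in V and -0.04 (SE 0.03) in A and Z mice (adjusted p of the difference 0.00531). The keratin Krt9 had -1.20 in V and -0.33 in A and Z mice, and the checkpoint adaptor Clspn had -1.01 and -0.16. Wwc1 (KIBRA) had -0.38 and -0.05, and Plk5, a polo-like kinase, had -0.86 and -0.23. The adjusted p of the difference was 0.00531 for Krt9, Clspn and Wwc1 and 0.0064 for Plk5 by edgeR. For Ppp1r1b the V estimate was -0.41 and the difference had an adjusted p of 0.502. The count was 54 without the library that stood apart, 12 without HttQ111/+ Hdac2 WT replicate 3, a V mouse, and 15 without Htt+/+ Hdac2 WT replicate 2.

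The HttQ111 effect differed between A and Z mice for 21 genes (0.118%), 13 with a higher estimate in Z (0.0733%) and 8 with a lower one (0.0451%), and 820 (4.62%) had an unadjusted p under 0.05. Of the 21, 16 lay on chromosome 17. Chromosome 17 held 4.86% of the genes tested. In A mice, C4a, a complement C4 gene, had 18.8, 21.2 and 22.6 CPM in the 3 Htt+/+ libraries and 4.34 to 5.66 CPM in the 5 HttQ111/+ libraries, while Z mice had 5.04 to 6.23 and 3.57 to 5.96 CPM. C4b, the other C4 gene, had 124 to 162 CPM in the Htt+/+ A mice and 24.7 to 87.3 CPM in the other 32 libraries of the series. For both genes it was the 3 Htt+/+ A mice that stood apart from all other mice, HttQ111/+ and Htt+/+. This held for 12 of the 21 genes, for which these 3 mice lay above (8 genes) or below (4 genes) every other library of the series. The 21 genes were chosen by a test that uses these 3 mice, so such a gap is in part given by that choice. The share of all genes with such a gap was not computed.

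**Figure D4:**
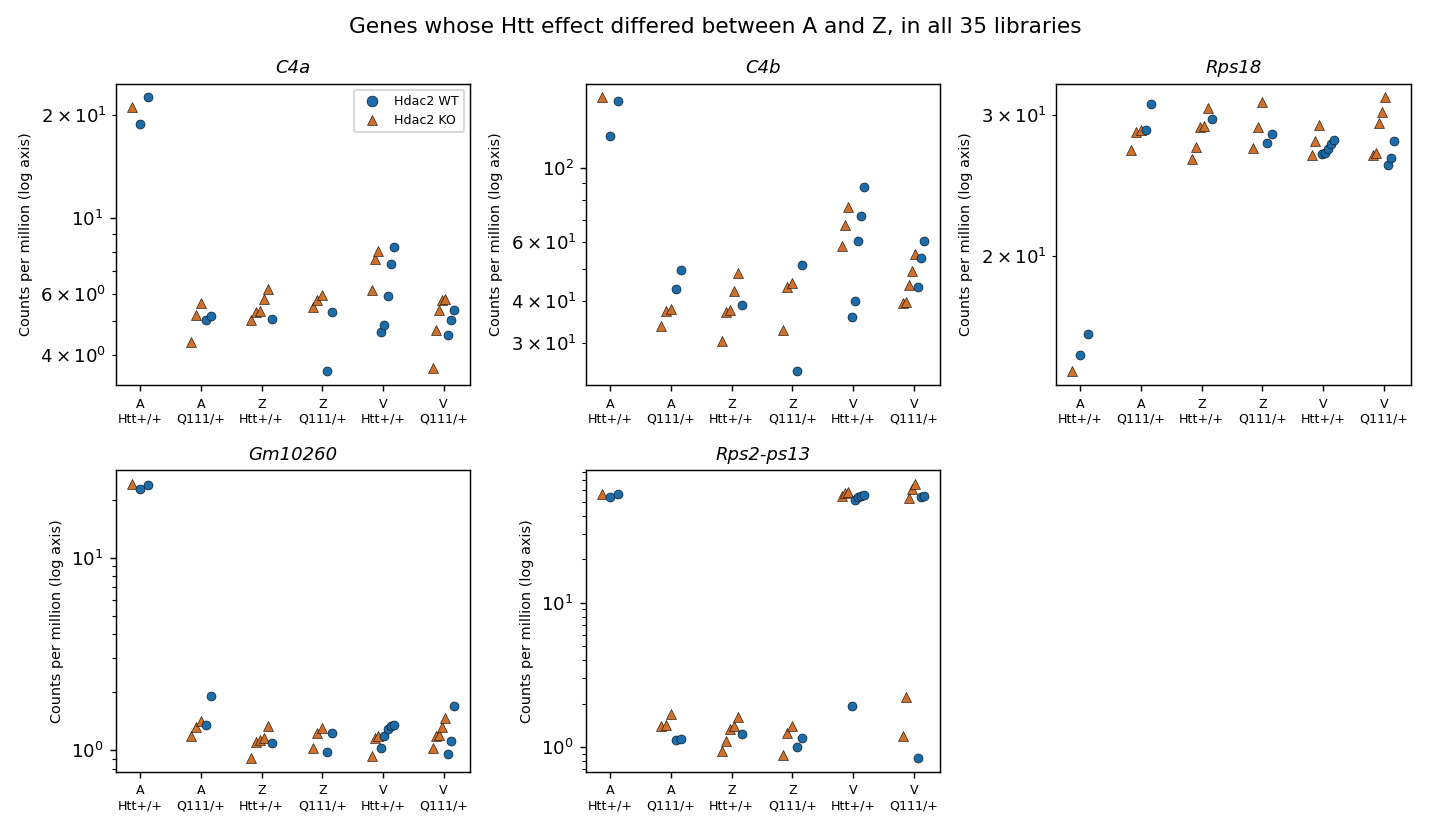
Levels of 5 genes whose HttQ111 effect differed between A and Z mice (CPM, log axes) in all 35 libraries, by ID letter and Htt genotype, with circles for Hdac2 WT and triangles for Hdac2 KO. The 3 Htt+/+ A libraries stand above the others for C4a, C4b and Gm10260 and below them for Rps18, while Rps2-ps13 is also high in most V libraries.

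Among the genes with the smallest p-values for this difference, given as the log2 effect in Z minus that in A, were Rps2-ps13 (5.28), Gm10260 (4.06), C4a (2.04) and Rps18 (-0.95). Rps18, a ribosomal protein gene on chromosome 17, had 14.3 to 16.0 CPM in Htt+/+ A mice and 26.0 to 31.6 CPM elsewhere, and Gm10260 on chromosome 13 had 22.8 to 24.0 CPM against 0.910 to 1.92 CPM. The transcripts of these genes were identical at 99.1% of 545 aligned bases, those of Rps2 and Rps2-ps13 at 99.2% of 882, and those of C4b and C4a at 96.2% of 5367, so reads of such copies can be assigned to either and their single values are uncertain. Rps2-ps13, on chromosome X, was at 54.0 to 56.1 CPM in Htt+/+ A mice and 0.887 to 1.70 CPM in the other A and Z mice, and it was both low and high among V mice of each Htt genotype. Of the 3 Htt+/+ A mice 2 have 1 floxed allele. The third, an Hdac2 KO mouse, has both alleles floxed and had like levels (21.2 CPM of C4a and 56.1 CPM of Rps2-ps13). The 5 HttQ111/+ A mice, with both alleles floxed, did not share these levels. The part of the floxed alleles in this pattern was not tested. In the Z mice of the model with a separate effect for each letter, C4a had an estimate of -0.04 and C4b of 0.01, against -0.93 and -0.80 in A and Z mice together.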

How the data were processed

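RNA from the striata of these 35 mice was sequenced by the authors from stranded mRNA libraries with ERCC spike-ins. The authors also sequenced a further Htt+/+ Hdac2 WT male and excluded it as an outlier with signs of DNA contamination. They aligned paired reads to GRCm38 (Ensembl 75) with GSNAP, per the submitters' processing notes, and counted unique alignments over whole gene intervals with bedtools multibamcov. Use of strand in counting is not given in the sources used here, and introns and overlapping genes are included. The deposited values are raw counts per gene, with no normalization.

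From 39109 entries, the 2 mitochondrial rRNA genes, 92 spike-ins and 6152 genes of at most 250 nt were dropped. A gene was tested if all libraries of some genotype group had 6 counts or more (17735 for 19 libraries, 17346 for 35). Counts were scaled by TMM and tested with edgeR 4.0.16 (R 4.3.3) by its quasi-likelihood F test in the older form, with Hdac2 genotype and ID letter as covariates. Adjustment of p-values was by Benjamini-Hochberg across every gene in the fit, with a threshold of 0.05. Htt by Hdac2, Htt by letter and, in a model of all 35 libraries, the A and Z against V difference were tested likewise. CPM used the factors of the 35-library model. The procedure was tested on simulated data.

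Groups, repeat lengths and dates came from the labels and floxed alleles from the authors' table of samples. Mice are separate animals. No library pair was identical (0 of 171).

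Members and lists were chosen with earlier results of these data known. Named were up to 10 rises and 10 falls past the threshold among genes whose mean log2 CPM was 1 or more or, with fewer than 10 past it, the 10 smallest p-values; list members and genes within 5 Mb of Htt past it; 12 fixed genes; and up to 5 genes for each difference. List members named for an unadjusted p under 0.05, and genes behind counts of 5 or fewer, were chosen after their values were seen. A result that the naming rule would include is not reported here. Alternatives covered scaling, test (DESeq2 1.42.0), filters, covariates (sex, extraction date, letter, replicate block, surrogate variables by sva 3.50.0) and libraries. Transcript identity was computed on GENCODE M21 transcripts with Biopython 1.88.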

Additional observations from a re-analysis of the deposited data

Results flagged for a closer look

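Among the named genes, 56 groups (28 genes in the 10 HttQ111/+ and the 9 Htt+/+ libraries) were examined for a library far from the rest, and 3 had one, where chance gives about 1 in 20. HttQ111/+ Hdac2 WT replicate 7 was lowest for Penk (1166 CPM, next 1523, a gap of 0.634 of the group's range) and for Tac1 (232 CPM, next 313, a gap of 0.634). It is the library with the high Slc17a7 level. HttQ111/+ Hdac2 WT replicate 2 was highest for Gm10260 (1.92 CPM, next 1.42, a gap of 0.532).

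The HttQ111 effect differed between A and Z mice for 21 genes by a test of the difference itself. As log2 effect in Z minus A, this was 5.28 for Rps2-ps13, 4.06 for Gm10260, 2.04 for C4a, 1.88 for C4b and -0.95 for Rps18.

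It differed between A and Z mice and V mice for 24 genes, by the test of the difference. As A and Z minus V, this was 0.87 for Krt9, 0.84 for Clspn, 0.33 for Wwc1, 0.35 for Prkcb, 0.63 for Plk5 and 0.46 for Penk.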

How the results depend on the processing

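The HttQ111 effect in A and Z mice had 0 genes past the adjusted threshold with RLE factors, the current quasi-likelihood form, short genes kept, extraction date, surrogate variables, no ID letter, the replicate block, and without the 2 mice with 1 floxed allele. It had 3 with DESeq2 (Ckb, Gpd1 and Penk), 2 with no count filter (BC023719 and Gm10499, the latter at 0 in 13 libraries) and 1 with sex added (Gpd1), all lower. Leaving out each library gave 0 to 4, the 4 (BC023719, Gm10499, Gm6034 and Gm8909) without Htt+/+ Hdac2 WT replicate 9. The Htt by Hdac2 count was 1 (Ildr2) with DESeq2 and 0 to 1 when each library was left out (Ildr2, without HttQ111/+ Hdac2 WT replicate 2). The Htt by letter count was 33 with DESeq2 and 13 without the 2 mice with 1 floxed allele, and 12 to 27 when each library was left out, with 12 without Htt+/+ Hdac2 KO replicate 1, the third Htt+/+ A mouse. The A and Z minus V count was 67 with DESeq2, 287 with surrogate variables (8 of them in the model), 6 without the 2 mice with 1 floxed allele, and 12 to 54 when each library was left out. The cause was not tested. The V count stayed within 1.5 times the main count under all of these.

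With the replicate block, the counts were 0 for the HttQ111 effect, 0 for Htt by Hdac2, 8 for Htt by letter and 11 for A and Z minus V. Replicate numbers did not pair the mice, since 1 of 14 same-number pairs correlated above 0.1 (mean -0.11).

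After seeing the data, 4 alternatives were added. The A libraries alone gave 28 genes and the Z libraries alone 0 for the HttQ111 effect, and the model of all 35 libraries gave 0. With chromosome 17 left out, the Htt by letter count was 3 (Rps2-ps13, Gm10260 and Gm15487) and the A and Z minus V count 24. In the fit of the Z libraries alone the sign turned for C4b (0.032), Tac1 (-0.0067) and Gm10260 (0.063). The sign of Hdac2, near 0, turned with no ID letter (0.00052), with the replicate block (0.0071) and in 4 of the 19 fits with a library left out, which ranged from -0.027 to 0.0094.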
